A study of Homo sapiens with 14 samples.

Results

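The mRNAs described here are those of 10 genes of the endoplasmic reticulum (ER) folding machinery and of the unfolded protein response, taken as a list from the 58434 gene symbols of a read count file and followed over its 14 libraries. The members are HSPA5, HSP90B1, HYOU1, CALR, CANX, PDIA4, PDIA6, XBP1, DNAJB9 and HERPUD1. RNA came from MDA-MB-231, an established human breast cancer cell line, carrying a stable doxycycline-inducible construct that expressed a non-silencing shRNA (shNSi) or an shRNA against DAP5 (shDAP5). All cultures received 1 µg/ml doxycycline for 6 days, the controls included. Each line gave 2 cultures, and from each culture mRNA was sequenced as total mRNA, as light polysomes (mRNA carrying few ribosomes) and as heavy polysomes (mRNA carrying many), with a moderate polysome pool from the shNSi cultures only. The question was which mRNAs lose ribosomes when DAP5, an initiation factor of the eIF4G family, is reduced. The labels do not pair the cultures of the lines, and each arm is a single stable line, so the shRNA and any other difference between the lines cannot be told apart.

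The ER folds secreted and membrane proteins with the help of resident chaperones. When unfolded proteins accumulate, the sensors IRE1, PERK and ATF6 are activated. ATF6 and the spliced form of XBP1 switch on chaperone genes, whereas PERK slows translation and raises the translation of ATF4. Secretory cells and many tumours use this response to match folding capacity to protein load. HSPA5 (BiP) and HSP90B1 (GRP94) are the ER members of the HSP70 and HSP90 families, and HYOU1 (GRP170) is an HSP70-related chaperone that also exchanges nucleotide on BiP. CALR and CANX are the lectin chaperones calreticulin and calnexin, which retain glycoproteins until they are folded. PDIA4 (ERp72) and PDIA6 (P5) are protein disulfide isomerases. XBP1 is a transcription factor of the response, DNAJB9 (ERdj4) is a J-domain co-chaperone of BiP, and HERPUD1 is a membrane protein of ER-associated degradation.

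Many of these genes share a promoter element, the ER stress response element (ERSE), a known binding site of ATF6 together with NF-Y. The matches are shown as background to the list of members. RefSeq promoter windows (GRCh38.p14, 250 bases before to 50 bases after each annotated start) were found for 10 of the 10 members and were searched on both strands for CCAAT and CCACG with 9 bases of any kind between them (ERSE) and for ATTGG and CCACG with 1 base between them (ERSE-II), which do not overlap each other in these windows. An ERSE was present in 6 members and in 27 of all 35116 windows (0.0769%), and HERPUD1 and HYOU1 held an ERSE-II, against 19 windows (0.0541%). Each match is printed with 5 bases on each side, on the strand where it reads in this orientation, with the fixed letters of the element in capitals.
HSPA5: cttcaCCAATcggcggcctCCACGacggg
HSP90B1 (distal): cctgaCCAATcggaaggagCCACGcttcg
HSP90B1 (proximal): acccaCCAATcgcgccgcaCCACGcaccc
PDIA6: ccggaCCAATgagccgcagCCACGgcttg
CALR: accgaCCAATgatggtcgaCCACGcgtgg
CANX: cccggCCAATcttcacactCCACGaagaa
XBP1: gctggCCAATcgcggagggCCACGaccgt
HERPUD1: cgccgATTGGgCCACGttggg
HYOU1 (proximal): tactcATTGGaCCACGtccca
HYOU1 (distal): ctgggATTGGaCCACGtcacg

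The printed run of HSPA5 is at chr9:125241386-125241414 (minus strand), and its element begins 66 bases before the start. Those of HSP90B1 are at chr12:103930211-103930239 (plus strand) and chr12:103930316-103930344 (minus strand). The PDIA6 run is at chr2:10812848-10812876 (minus strand), that of CALR at chr19:12938379-12938407 (minus strand), that of CANX at chr5:179698773-179698801 (plus strand) and that of XBP1 at chr22:28800598-28800626 (minus strand). The HERPUD1 run is at chr16:56932020-56932040 (plus strand), and the HYOU1 runs are at chr11:119057269-119057289 and chr11:119057375-119057395 (plus strand). Each run lies before the RefSeq start of its own window. In GENCODE v29 the runs of HSP90B1, PDIA6 and CANX lie inside the annotated gene, which begins farther upstream. PDIA4 and DNAJB9 had no match to these letters in their windows. As the values below show, members with an ERSE or ERSE-II stood on both sides of 0 in heavy polysomes. HSPA5 and XBP1 share the ERSE, and HSPA5 fell while XBP1 had a positive value that did not pass the test. The same held for HYOU1 and HERPUD1, which share the ERSE-II. Whether the elements bear on any of these values was not tested.

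The libraries held 25899838 to 30795910 counts, and the 2 cultures of a group correlated at r = 0.971 to 0.992 across 16235 genes, which are not independent replicates. EIF4G2, the gene of DAP5, had 1390 and 1360 CPM (counts scaled to the same library size) in total mRNA of the shNSi cultures and 526 and 730 CPM in the shDAP5 cultures, a log2 change of -1.11 (SE 0.18, adjusted p = 0.0172, edgeR quasi-likelihood test). The call was lost with library size, limma and length offsets (adjusted p up to 0.0618), and without the first shDAP5 culture (-0.90, adjusted p = 0.68). In heavy and light polysomes EIF4G2 did not pass (-0.86 and -1.33), but with DESeq2 it did in both (adjusted p = 0.00821 and 0.00374), and it passed in light polysomes without either shNSi culture. Of the markers of the line, VIM and CD44 were abundant, PGR was at 0 in every library, and ESR1 and CDH1 stayed under 0.5 CPM in the mean of each group of total, light and heavy mRNA. ERBB2 had group means of 40.8 to 84.4 CPM in these fractions. Of the 3 line markers tested in heavy polysomes, VIM (-1.35, adjusted p = 0.00559) and CD44 (-1.94, adjusted p = 3.22e-05) fell with the chaperones, ERBB2 (-0.56, adjusted p = 0.18) did not pass, and all 3 had no overlap between the lines, as in 37% of all genes in this direction. CPM values are scaled over all 14 libraries, whereas each fit scales its own libraries. The fitted changes are therefore higher than the ratios of printed levels by a median of 0.18 on the log2 scale in heavy polysomes, and the shNSi difference between heavy and light polysomes is lower by 0.21 (a shift of -0.21).

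In total mRNA of the shNSi cultures, compared per kilobase of annotated exon (GENCODE v29, GRCh38), CALR stood highest with 250 CPM per kb. CANX (121 CPM per kb), HSP90B1 (117) and HSPA5 (114) followed and lay closer to each other than their own 2 cultures did. Next were PDIA6 (51.6 CPM per kb) and PDIA4 (42.2), whose cultures overlapped, then XBP1 (26.3) and HYOU1 (23.6), whose cultures overlapped as well. HERPUD1 (11.7 CPM per kb) and DNAJB9 (2.86) were lowest. HSP90B1 overlaps C12orf73 on the opposite strand (75 to 811 counts), DNAJB9 overlaps the starts of PNPLA8 and THAP5 on the opposite strand, and reads of HSP90B1 may be shared with the pseudogene HSP90B2P (3 to 27 counts). The name of the count file holds the words featurecounts and rev, which may stand for reverse-strand counting, but no source used here states the strand setting, so these values are uncertain by that much. Counts per gene do not separate spliced from unspliced XBP1.

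**Figure D1:**
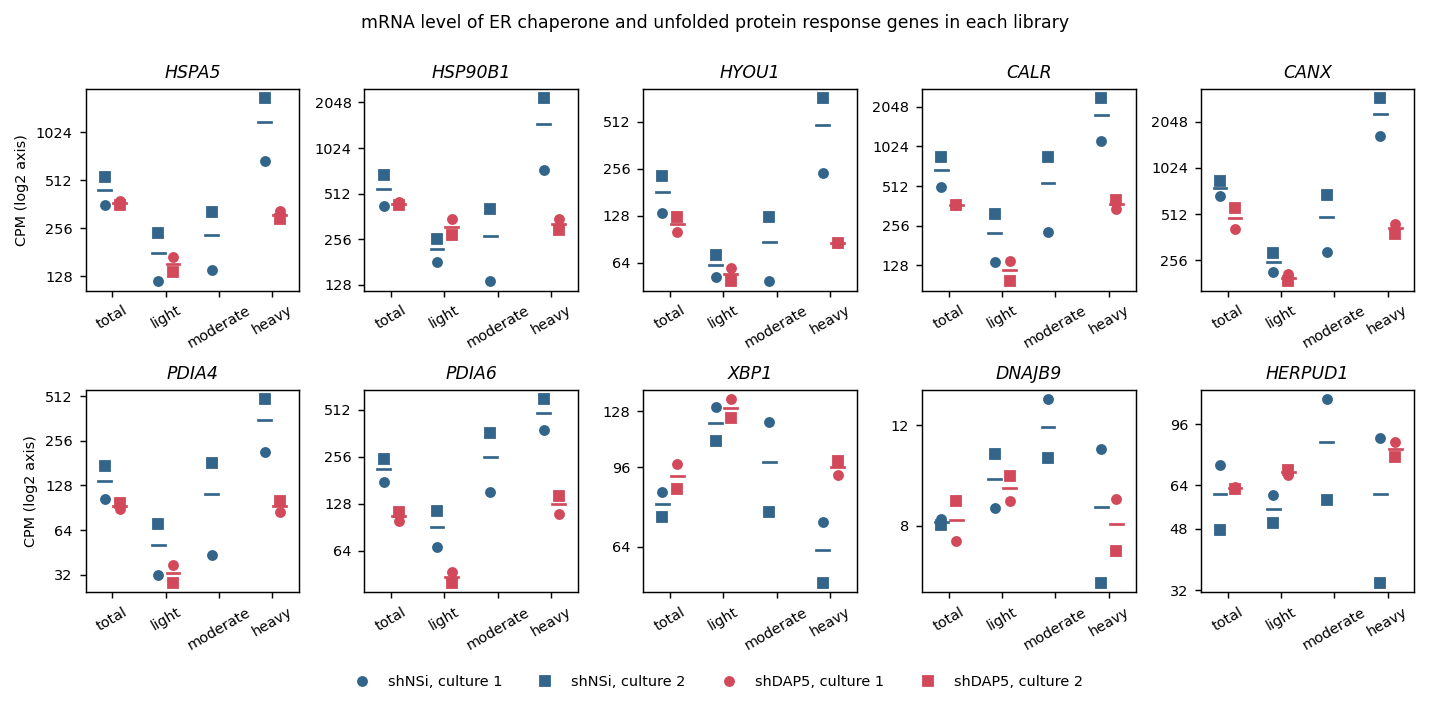
Level of each member in CPM (log2 axis, different range in each panel) in total, light, moderate and heavy libraries. Points are cultures (circles culture 1, squares culture 2) and bars are means, with shNSi in blue and shDAP5 in red. In HSPA5 the shNSi heavy cultures stand at 682 and 1690 CPM and the shDAP5 heavy cultures at 328 and 292 CPM.

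DAP5 silencing was accompanied by a loss of ER chaperone mRNA from heavy polysomes. HSPA5, HSP90B1, HYOU1, CALR, CANX, PDIA4 and PDIA6, which are 7 of the 10 members, fell in the heavy pool to between 0.202 and 0.302 of the shNSi level, and the other 3 did not pass the test. Of all 14270 genes tested, 16.7% fell in this comparison. In bulk counts, fewer cells with an mRNA and less of it in each cell cannot be told apart. The 7 mRNAs together took 0.382% and 0.775% of all counts from shNSi heavy polysomes and 0.181% and 0.159% from shDAP5 heavy polysomes. The median change over the 10 members was -1.75 on the log2 scale, beside 0.09 over all genes.

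Among the HSP70 and HSP90 chaperones, HSPA5 had 682 and 1690 CPM in the shNSi heavy libraries and 328 and 292 CPM in the shDAP5 ones. The groups did not overlap, as in 37% of all genes in this direction, and the log2 change was -1.74 (SE 0.38, edgeR adjusted p = 0.000185). HSP90B1 had 731 and 2200 CPM against 346 and 297 CPM, a log2 change of -1.99 (SE 0.39, adjusted p = 3.74e-05). HYOU1 had 242 and 732 CPM against 86.2 and 85.1 CPM, with a log2 change of -2.31 (SE 0.38, adjusted p = 1.01e-06). In each of these genes the second shNSi culture held 2.48 to 3.02 times the level of the first, while the second shDAP5 culture held 0.86 to 0.988 times the level of the first. HYOU1 was lower than all but 0.75% of the genes tested.

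The lectin chaperones fell by similar amounts. CALR had 1120 and 2390 CPM in the shNSi heavy libraries and 342 and 403 CPM in the shDAP5 ones (log2 change -2.04, SE 0.39, adjusted p = 1.65e-05). CANX, the most abundant member in this pool before correction for length, had 1640 and 2930 CPM against 445 and 382 CPM (log2 change -2.28, SE 0.40, adjusted p = 2.2e-06). Every shDAP5 heavy library was below every shNSi heavy library in both genes, as in 37% of all genes in this direction. Of the disulfide isomerases, PDIA4 had 216 and 486 CPM against 84.8 and 100 CPM (log2 change -1.73, SE 0.36, adjusted p = 7.17e-05). PDIA6 had 382 and 595 CPM against 110 and 143 CPM (log2 change -1.75, SE 0.36, adjusted p = 7e-05).

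The 3 members that are not abundant ER-lumen or lectin chaperones stood apart. XBP1 had 72.5 and 53.1 CPM in the shNSi heavy libraries and 92.6 and 99.5 CPM in the shDAP5 ones, so the shDAP5 cultures were above the shNSi cultures without overlap, as in 29% of all genes in this direction. The log2 difference of 0.79 (SE 0.33) did not pass (edgeR adjusted p = 0.0508), but passed with limma (0.91, adjusted p = 0.0227) and with scaling to library size (1.03, adjusted p = 0.0314). HERPUD1 had 87.5 and 33.5 CPM against 85.2 and 77.1 CPM, a log2 difference of 0.60 (SE 0.34, adjusted p = 0.165) that rested on the low second shNSi culture. It was 0.04 without that culture and 1.37 (adjusted p = 0.00856, past the threshold) without the first. DNAJB9, with 10.9 and 6.35 CPM against 8.92 and 7.22 CPM, had a log2 difference of 0.08 (SE 0.38, adjusted p = 0.89) and overlapping groups. These p-values do not show that the 3 mRNAs were equal between the lines.

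With the second shNSi culture left out, HSPA5 (log2 change -0.99, adjusted p = 0.0842) and HSP90B1 (-1.04, adjusted p = 0.0699) were no longer past the threshold in heavy polysomes. The other 5 were, with smaller changes of -1.84 for CANX, -1.44 for CALR, -1.44 for PDIA6, -1.35 for HYOU1 and -1.08 for PDIA4. With the second shDAP5 culture left out, none of the 7 was (adjusted p = 0.094 to 0.134), although the log2 changes stayed between -2.33 and -1.69. In that setting 2 of all 14891 genes were past the threshold. Against the sum of the heavy and moderate shNSi counts, CALR, CANX, HYOU1 and PDIA6 kept their calls and HSPA5 (-0.96), HSP90B1 (-1.19) and PDIA4 (-1.12) lost theirs.

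**Figure D2:**
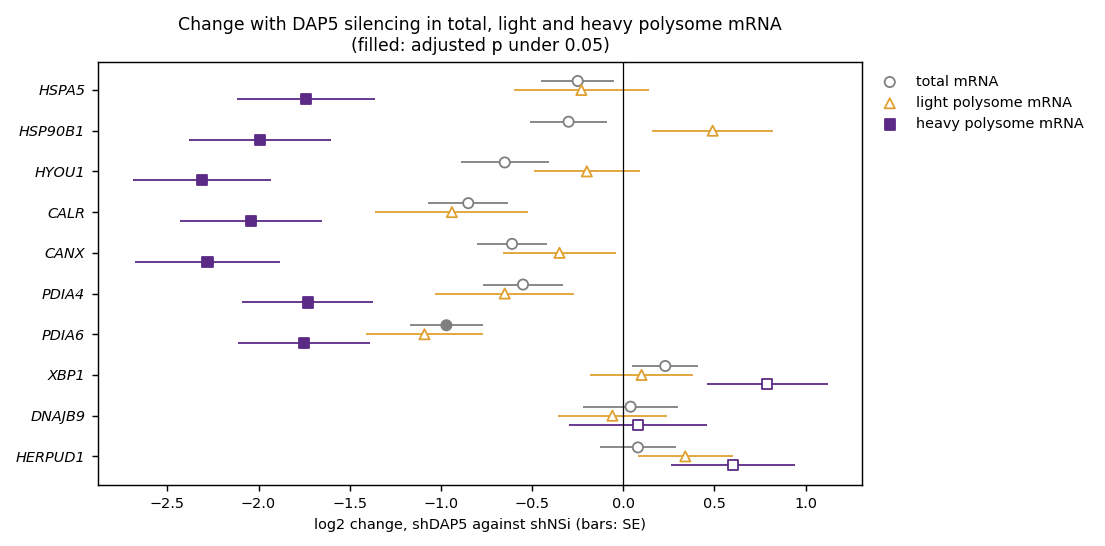
Log2 change of each member with DAP5 silencing in total mRNA (grey circles), light polysomes (orange triangles) and heavy polysomes (purple squares), with bars of 1 SE and filled symbols past an adjusted p of 0.05. The 7 chaperones lie between -2.31 and -1.73 in heavy polysomes and between -0.97 and -0.25 in total mRNA.

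Total mRNA of the same genes differed less. PDIA6 was the only member past the threshold, with 176 and 248 CPM in the shNSi cultures and 99.6 and 113 CPM in the shDAP5 cultures, a log2 change of -0.97 (SE 0.20, edgeR adjusted p = 0.0474). Of all 14992 genes, 0.267% fell in total mRNA. The PDIA6 call was lost without the second shNSi culture (log2 change -0.71, adjusted p = 0.134), without the first shDAP5 culture (-0.89, adjusted p = 0.909), with scaling to library size (-0.92, adjusted p = 0.11), with limma (-0.88, adjusted p = 0.119) and with offsets for coding length (-0.95, adjusted p = 0.117). CALR had 507 and 852 CPM against 369 and 368 CPM, with a log2 difference of -0.85 (SE 0.22, adjusted p = 0.116), and passed without the first shNSi culture (-1.20, adjusted p = 0.00213, beside -0.45, adjusted p = 0.44, without the second), with DESeq2 (-0.87, adjusted p = 0.0286) and with no filter (-0.89, adjusted p = 0.000385).

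HYOU1 (134 and 229 CPM against 101 and 126 CPM), CANX (668 and 842 CPM against 412 and 560 CPM) and PDIA4 (103 and 173 CPM against 88.5 and 97.2 CPM) also had both shDAP5 cultures below both shNSi cultures in total mRNA, with log2 differences of -0.65, -0.61 and -0.55 that did not pass the test (adjusted p = 0.278, 0.17 and 0.336). HYOU1 (-1.01, adjusted p = 0.012) and PDIA4 (-0.90, adjusted p = 0.0206) passed without the first shNSi culture and had values of -0.23 and -0.14 without the second, and HYOU1 (-0.68, adjusted p = 0.0235) and CANX (-0.64, adjusted p = 0.0294) passed with no filter on low counts. Such separation in this direction was present in 22.2% of genes. HSPA5, with 358 and 535 CPM against 382 and 357 CPM, overlapped (log2 difference -0.25, SE 0.20, adjusted p = 0.696), as did HSP90B1, with 423 and 679 CPM against 448 and 431 CPM (-0.30, SE 0.21, adjusted p = 0.632). XBP1 (84.8 and 74.4 CPM against 97.7 and 85.8 CPM), HERPUD1 (73.1 and 47.7 CPM against 63.1 and 62.6 CPM) and DNAJB9 (8.23 and 8.01 CPM against 7.53 and 8.85 CPM) had differences of 0.23, 0.08 and 0.04.

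Translation efficiency is the level in a polysome pool divided by the level in total mRNA of the same culture. In heavy polysomes of shNSi cells, HSPA5 had a log2 ratio to total mRNA of 0.93 and 1.66 in the 2 cultures, so it was enriched there, whereas in shDAP5 cells the ratio was -0.22 and -0.29. The change in this ratio was -1.40 (SE 0.37, edgeR interaction test, adjusted p = 0.0133). HSP90B1 went from 0.79 and 1.70 to -0.37 and -0.53, a change of -1.55 (SE 0.38, adjusted p = 0.00927). HYOU1 went from 0.85 and 1.67 to -0.23 and -0.56, a change of -1.52 (SE 0.35, adjusted p = 0.00824).

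In heavy translation efficiency CANX went from log2 ratios of 1.29 and 1.80 to 0.11 and -0.55 (-1.62, SE 0.38, adjusted p = 0.00831), which is within 1 SE of HSP90B1 and HYOU1. CALR went from 1.14 and 1.49 to -0.11 and 0.13 (-1.16, SE 0.37, adjusted p = 0.0325). PDIA4 went from 1.06 and 1.48 to -0.06 and 0.05 (-1.14, SE 0.34, adjusted p = 0.0236). For PDIA6, whose total mRNA was also lower, the ratios of 1.11 and 1.26 became 0.15 and 0.34, and the difference of -0.80 (SE 0.34) did not pass (adjusted p = 0.103), although it did with DESeq2 (-0.86, adjusted p = 0.0413). Thus 6 of the 10 members fell in heavy translation efficiency, where 8.23% of all 15374 genes did. XBP1 (0.57), HERPUD1 (0.63) and DNAJB9 (0.08) had differences above 0 that did not pass the test (adjusted p = 0.246, 0.207 and 0.914).

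The 6 calls were sensitive to single libraries and to the control. They did not hold without the second shNSi culture (log2 changes of -1.37 to -0.93) or without the second shDAP5 culture (-1.51 to -1.23). These fits leave 1 culture in a group, and few of all genes passed in them. PDIA4 (-1.38, adjusted p = 0.0799) and CALR (-1.37, adjusted p = 0.123) lost theirs without the first shNSi culture, and PDIA4 also with limma (-0.92, adjusted p = 0.0654). None held with scaling to library size (edgeR adjusted p = 0.0638 to 0.0856) or without a term for each culture (log2 changes of -1.73 to -1.21, adjusted p = 0.116 to 0.183). None held either against the sum of the heavy and moderate shNSi counts (log2 changes of -0.73 to -0.36). In each of these fits 0% of all genes were past the threshold, so the losses were not particular to the members.

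**Figure D3:**
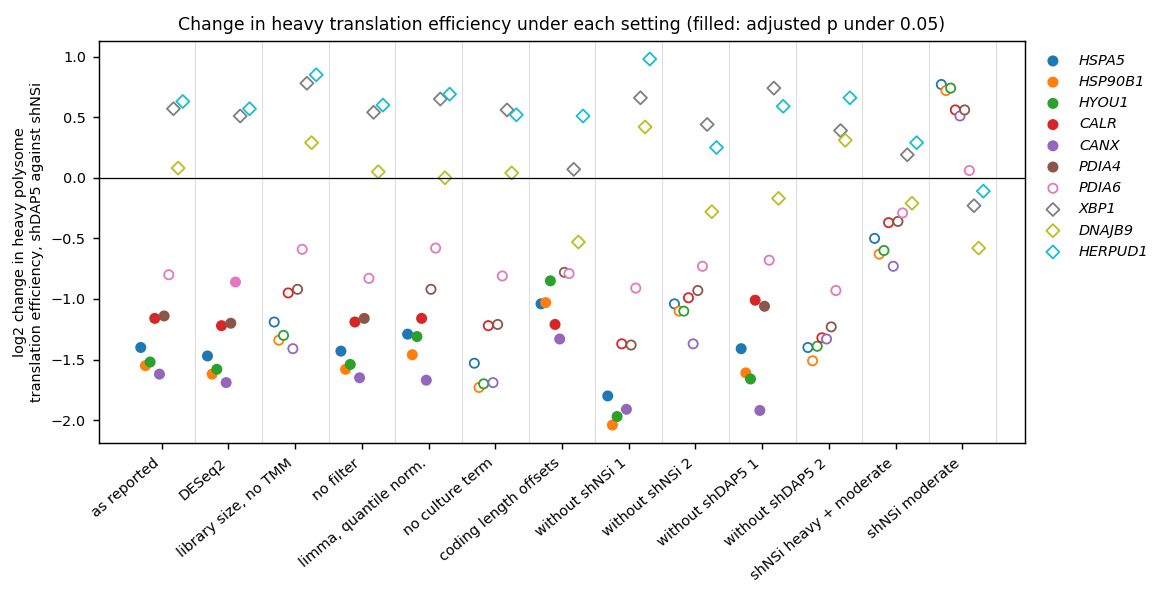
Log2 change in heavy polysome translation efficiency of each member (colours, diamonds for XBP1, DNAJB9 and HERPUD1) as reported, under other normalizations, tests and corrections, without each culture, and with other shNSi control pools. Filled symbols are past an adjusted p of 0.05. The 7 chaperones lie below 0 in every column except the last, where the shNSi moderate pool is the control and they lie between 0.06 and 0.77.

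In control cells the chaperone mRNAs were concentrated in heavy polysomes. In shNSi cells, HSPA5, HSP90B1, HYOU1, CALR, CANX, PDIA4 and PDIA6 rose from light to heavy polysomes by 2.23 to 2.93 on the log2 scale (edgeR with a culture term, adjusted p = 1.28e-06 to 2.62e-05), and each was above at least 94% of the 14798 genes tested. Of all genes, 29.8% were higher in heavy polysomes. XBP1 was the opposite, with 131 and 110 CPM in light and 72.5 and 53.1 CPM in heavy polysomes, a log2 change of -1.16 (SE 0.35, adjusted p = 0.00414), where 32.2% of genes were lower. With offsets for coding length the 7 chaperones still passed, at lower values between 1.39 for HSP90B1 and 2.57 for CALR, and XBP1 did not (-0.50, adjusted p = 0.109). HERPUD1 (-0.22, adjusted p = 0.593) and DNAJB9 (-0.41, adjusted p = 0.333) did not pass either.

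By mean log2 difference the moderate pool lay between light and heavy for the 7 chaperones, and nearer to light for all of them but PDIA6, whose cultures differed in this. HSPA5 had 141 and 322 CPM there, a log2 difference from light of 0.24 and 0.44 and a difference of heavy from moderate of 2.27 and 2.39. HSP90B1 had 135 and 403 CPM, with heavy above moderate by 2.43 and 2.45. PDIA6 was more evenly spread, with 152 and 361 CPM, moderate above light by 1.17 and 1.65 and heavy above moderate by 1.33 and 0.72. XBP1, HERPUD1 and DNAJB9 each had less in heavy than in moderate polysomes in both cultures, with mean log2 differences of -0.63, -0.57 and -0.48.

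In level, the shDAP5 heavy pool was closer to the shNSi moderate pool than to the shNSi heavy pool for the 7 chaperones. HSP90B1 had 346 and 297 CPM in the shDAP5 heavy libraries, between the 135 and 403 CPM of the shNSi moderate ones, and HYOU1, CALR, CANX and PDIA4 were likewise between their shNSi moderate values. HSPA5, with 328 and 292 CPM, was between or just above its 141 and 322 CPM there, and PDIA6, with 110 and 143 CPM, was below its 152 and 361 CPM. With the moderate pool as the control, the changes of HSPA5 (0.44) and HSP90B1 (0.27) in heavy polysomes turned upward and no member was past the threshold. No shDAP5 moderate pool was analysed here, and whether the heavy pools of both lines span the same part of the gradient was not tested.

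No member was past the threshold in light polysome mRNA or in light translation efficiency when the shNSi light pool was the control, and none of the genes tested was by the edgeR test, beside 1330 of 15529 genes (8.56%) and 833 of 15967 genes (5.22%) at an unadjusted p under 0.05. DESeq2 called 105 genes in light polysomes and 0 in light translation efficiency. HSP90B1 was the only chaperone above 0 in light polysomes, with 180 and 259 CPM in the shNSi cultures and 348 and 272 CPM in the shDAP5 cultures, a log2 difference of 0.49 (SE 0.33, adjusted p = 0.673). Its light ratio to total mRNA went from -1.23 and -1.39 to -0.36 and -0.67, a difference of 0.79 (SE 0.28, adjusted p = 0.879). PDIA6 had 67.2 and 115 CPM against 46.6 and 39.6 CPM (-1.09, SE 0.32, adjusted p = 0.49) and passed with no filter on low counts (-1.10, adjusted p = 0.0494). CALR had a value of -0.94 with all libraries. With the first shNSi culture left out, which leaves 1 control culture, the light polysome values were -1.44 for PDIA6, -1.44 for CALR, -1.12 for PDIA4 and -0.66 for HSPA5. In light translation efficiency the values in that setting were 0.88 for HSP90B1 and 0.60 for HYOU1. Without the second shNSi culture the light polysome values were -0.65 for PDIA6, -0.20 for CALR, 0.02 for PDIA4 and 0.36 for HSPA5. The light translation efficiency values were then 0.69 for HSP90B1 and 0.27 for HYOU1. The shDAP5 light libraries carry the description code of the shNSi moderate pool. With the shNSi moderate pool as the control, PDIA6 (-2.56, adjusted p = 0.0118) and CALR (-2.19, adjusted p = 0.0292) passed in light polysome mRNA, and PDIA6 (-1.45, adjusted p = 0.00765) in light translation efficiency. Of all genes, 13% fell and 12.6% rose in light polysome mRNA with this control. In light translation efficiency 13.8% fell and 13.8% rose.

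The difference between heavy and light polysomes was then compared between the lines, which leaves the total libraries out. In shNSi cells HSP90B1 was higher in heavy than in light polysomes by 2.02 and 3.09 on the log2 scale, and in shDAP5 cells the difference was -0.01 and 0.13, so its mRNA was at about the same level in both pools. The change was -2.40 (SE 0.54, edgeR interaction test, adjusted p = 0.0204), lower than all but 0.397% of 15878 genes. CANX (-1.98, SE 0.53, adjusted p = 0.0309) and HYOU1 (-2.02, SE 0.48, adjusted p = 0.0217) fell as well, where 5.21% of genes did. HSPA5 (-1.55, adjusted p = 0.0572), CALR (-1.21, adjusted p = 0.149), PDIA4 (-1.17, adjusted p = 0.0966) and PDIA6 (-0.79, adjusted p = 0.282) did not pass, and the 6 chaperones other than HSP90B1 still had more mRNA in heavy than in light polysomes in both shDAP5 cultures, with mean log2 differences of 0.67 for HYOU1, 1.02 for HSPA5, 1.06 for CANX, 1.5 for PDIA4, 1.54 for PDIA6 and 1.68 for CALR.

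The calls for HSP90B1, CANX and HYOU1 in this comparison held without either shNSi culture and were lost without the second shDAP5 culture (adjusted p = 0.48 to 0.541), with log2 changes of -2.47, -1.95 and -2.14. Without the first, HSP90B1 held (adjusted p = 0.0493) and CANX (0.102) and HYOU1 (0.0873) did not. None of the 3 held with offsets for coding length alone (adjusted p = 0.054 to 0.111), with no term for each culture or with the summed control, and CANX was lost with the shNSi moderate pool as the control for light (-1.14, adjusted p = 0.116). Of all genes, 0.0556% fell with those offsets, and 0% with no culture term or with the summed control. HSPA5 passed with DESeq2 (-1.59, adjusted p = 0.00292), with no filter (-1.59, adjusted p = 0.0404) and without the first shNSi culture (-1.70, adjusted p = 0.0104), and PDIA4 (-1.21, adjusted p = 0.0334) and CALR (-1.26, adjusted p = 0.0285) passed with DESeq2.

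Coding sequence length moved with the changes in heavy polysomes. Over 12468 genes with an annotated coding sequence, the change in heavy translation efficiency had a Spearman rho of -0.71 with coding length, a description across genes that share libraries. Its median was 0.83 for 1539 genes with under 600 coding nucleotides and -0.85 for 1768 genes with over 3000. Of the members, DNAJB9 (669 nt), XBP1 (783 nt) and HERPUD1 (1173 nt) are the shortest, CALR has 1251 nt, PDIA6 1320 nt, CANX 1776 nt, PDIA4 1935 nt, HSPA5 1962 nt, HSP90B1 2409 nt and HYOU1 2997 nt. All 7 chaperones lay below the trend at their length in heavy translation efficiency, by -1.33 for CANX, -1.19 for CALR and -0.84 for HYOU1. XBP1 was on the trend (0.09 above), HERPUD1 was 0.53 above it and DNAJB9 lay below it by -0.52. CALR and HERPUD1 are alike in coding length, and CALR fell while the value of HERPUD1 was above 0 and did not pass. Without the second shNSi culture their values were -0.99 and 0.25. The part of coding length in these changes was not tested.

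**Figure D4:**
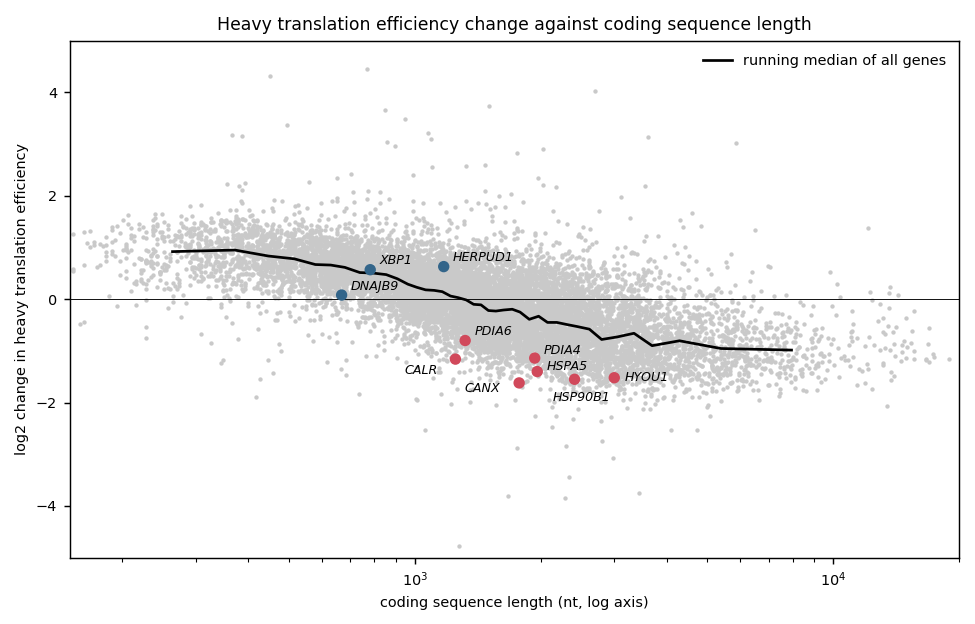
Change in heavy translation efficiency (log2) against coding sequence length (nt, log axis) for 12468 genes in grey, with the running median in black, the 7 chaperones in red and XBP1, DNAJB9 and HERPUD1 in blue. All 7 chaperones lie below the running median at their length.

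With offsets for coding length fitted to each library, CANX (-1.33, adjusted p = 0.00735), CALR (-1.21, 0.0113), HSPA5 (-1.04, 0.0228), HSP90B1 (-1.03, 0.0246) and HYOU1 (-0.85, 0.0453) remained past the threshold in heavy translation efficiency, and PDIA4 did not (-0.78, adjusted p = 0.064). Of all genes, 2.45% fell in that fit. All 7 chaperones remained past the threshold in heavy polysome mRNA (log2 changes of -2.12 to -1.36), where 7.2% of all genes fell. XBP1 moved from 0.79 to 0.28 in that comparison.

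The wider ER pathway was followed with 5 further lists. The calnexin cycle, which trims and reglucosylates the glycans that CALR and CANX bind, had the highest share of genes called in heavy polysomes: 5 of 5 genes fell (median -1.93), and 4 of 5 fell in heavy translation efficiency (median -1.29), beside 16.7% and 8.23% of all genes. PRKCSH (-2.42, adjusted p = 2.56e-07) and GANAB (-2.28, adjusted p = 1.52e-06), the subunits of glucosidase II, MOGS (-1.93), which is glucosidase I, and UGGT1 (-1.81), the folding sensor that reglucosylates unfolded glycoproteins, had the largest changes in heavy polysomes. In heavy translation efficiency, GANAB (-1.58), PRKCSH (-1.40), UGGT2 (-1.29) and MOGS (-1.05) fell. In total mRNA none of the 5 was past the threshold.

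Of 21 other ER folding and redox genes, 10 fell and 2 rose in heavy polysomes (median -0.76), and 3 fell in heavy translation efficiency (median -0.22). Of all genes, 16.7% fell and 14.2% rose in heavy polysomes and 8.23% fell in heavy translation efficiency, so the 2 rises were below the share of all genes. The median of this list was -0.76 in light polysomes and -0.53 in total mRNA as well, with no gene past the threshold in either. PDIA3, the oxidoreductase that works with CALR and CANX, changed by -2.54 (adjusted p = 6.4e-08), HSPA13, an HSP70-related protein, by -1.89, P4HB, the archetypal disulfide isomerase, by -1.74, and DNAJC3, a BiP co-chaperone, by -1.63. FKBP2 (0.91, adjusted p = 0.0268) and SDF2L1 (0.86, adjusted p = 0.0481) rose in heavy polysomes. With DESeq2, with no filter or with coding length offsets none of the 21 rose. In heavy translation efficiency, PDIA3 (-1.56), HSPA13 (-1.35) and ERP44 (-1.11) fell.

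Of 20 tested genes of ER-associated degradation, the route that HERPUD1 serves, 6 fell in heavy polysomes (median -0.62) and 5 in heavy translation efficiency (median -0.24), beside 16.7% and 8.23% of all genes, and none rose. SEL1L (-2.19, adjusted p = 1.57e-07), the adaptor of the ubiquitin ligase SYVN1 (-1.67), OS9 (-2.17), a lectin of the same complex, and VCP (-1.76), the ATPase that extracts substrates, were the leading genes. SEL1L (-1.72), VCP (-1.44), OS9 (-1.18) and SYVN1 (-1.05) also fell in heavy translation efficiency. HERPUD1, a partner of this complex, had a value of 0.60 in heavy polysomes that did not pass.

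Among 6 sensors and transducers, 5 fell in heavy polysomes (median -1.27), beside 16.7% of all genes, and MBTPS2 alone in heavy translation efficiency (-1.21, adjusted p = 0.023), beside 8.23%. MBTPS2 (-1.82), a protease that cleaves ATF6, ATF6B (-1.34), ATF6 (-1.31) and ERN1 (-1.23), the gene of IRE1, had the largest changes in heavy polysomes. Of 9 targets of the PERK branch, 5 rose in heavy polysomes, where 14.2% of all genes did, and the other 4 did not pass (median 1.04). In heavy translation efficiency none of the 9 rose and 1 fell, but 2 rose with limma and 3 without the first shDAP5 culture, where 2.95% and 13% of all genes rose. DDIT4 (1.90, adjusted p = 2.3e-05), CHAC1 (1.60), TRIB3 (1.34) and ATF4 (1.08), the transcription factor of the branch, had the largest changes. DDIT4, an inhibitor of mTORC1 signalling, was also higher in total mRNA (1.13, adjusted p = 0.0172), and ASNS, which makes asparagine, fell in heavy translation efficiency (-1.05, adjusted p = 0.0309).

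Without the second shDAP5 culture no gene of the calnexin cycle, ER folding or degradation lists was past the threshold in heavy polysomes or in heavy translation efficiency. Without the second shNSi culture 4, 5 and 5 genes of these lists fell in heavy polysomes and none in heavy translation efficiency. Of the sensors and of the PERK targets, none was past the threshold in heavy polysomes without the second shDAP5 culture. Without the second shNSi culture 3 sensors fell, and 1 PERK target rose and 1 fell, where 8.42% of all genes were lower and 5.66% higher. Against the summed heavy and moderate control 4 genes of the calnexin cycle, 3 of ER folding, 2 of degradation and 1 sensor fell in heavy polysomes and 1 PERK target rose, and against the moderate pool alone no gene of the 5 lists was past the threshold. Of all genes, 2.22% were lower with the summed and 0.165% with the moderate control. With offsets for coding length, 3 genes of the calnexin cycle, 5 of ER folding, 6 of degradation and 2 sensors fell in heavy polysomes and 3 PERK targets rose, in a fit where 7.2% of all genes fell and 4.93% rose. In heavy translation efficiency no gene of these 5 lists was past the threshold with scaling to library size, with no culture term, with the moderate or summed control, or without the second culture of either line. With that scaling, with no culture term and with either of those controls, 0% of all genes were past it. With offsets for coding length 2 genes of the calnexin cycle, 3 of ER folding and 3 of degradation fell in heavy translation efficiency, and with limma 2 of each, where 2.45% of all genes fell in either case. MBTPS2 and ASNS also lost their calls with limma and without the first shNSi culture, and ASNS with offsets for coding length.

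**Figure D5:**
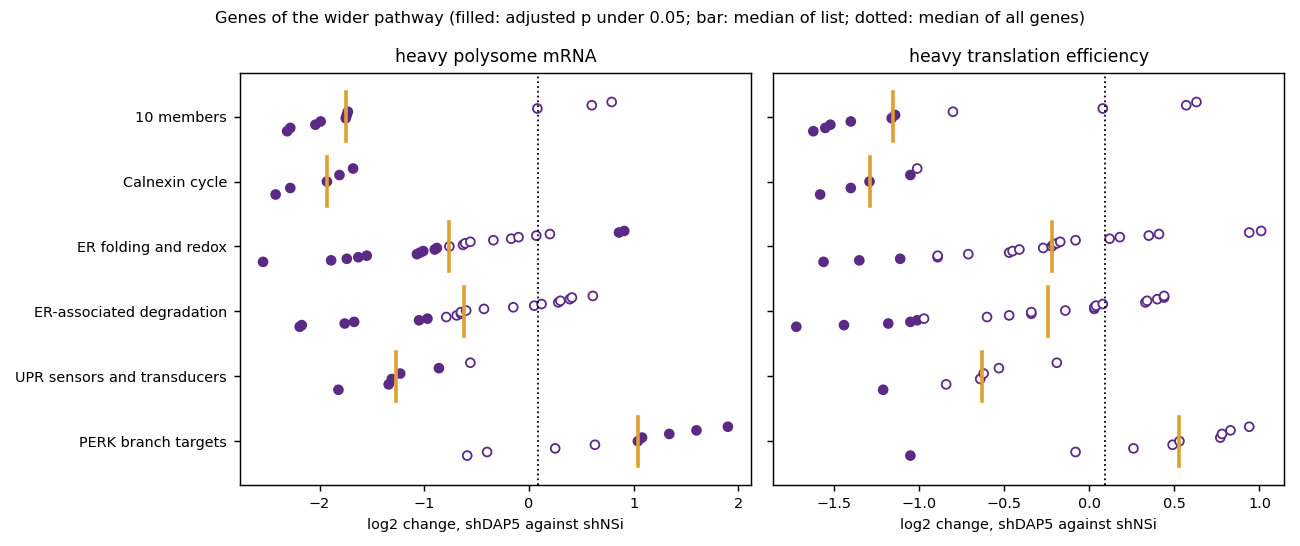
Log2 change with DAP5 silencing in heavy polysome mRNA (left) and heavy translation efficiency (right) for the tested genes of each list. Each point is a gene, filled past an adjusted p of 0.05, the orange bar is the median of the list and the dotted line the median of all genes. The calnexin cycle has all 5 genes filled on the left and 4 on the right, and the PERK targets lie mostly above 0.

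The cultures of the control line differed from each other in these genes. From the first to the second shNSi culture, HSPA5 was 2.48 times, HSP90B1 3.01 times, HYOU1 3.02 times, CALR 2.13 times and PDIA4 2.24 times as high in heavy polysomes, while 95% of all genes were under 1.83 times. CANX (1.79 times) and PDIA6 (1.56 times) were under that value. In total mRNA HSP90B1 (1.60 times), CALR (1.68 times), PDIA4 (1.68 times) and HYOU1 (1.70 times) were above the 1.53 times that 95% of all genes were under, and HSPA5 (1.5 times), PDIA6 (1.41 times) and CANX (1.26 times) were below it. HERPUD1, DNAJB9 and XBP1 went the other way, at 0.387, 0.6 and 0.734 times in heavy polysomes and 0.654, 0.974 and 0.878 times in total mRNA. Of these values only that of HERPUD1 in heavy polysomes was under the 5th percentile of all genes (0.585 times there). In shDAP5 cells, all 10 members were between 0.819 and 1.30 times in heavy polysomes, within the middle range of all genes (0.568 to 1.59). What set the shNSi cultures apart was not tested.

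Over the 14 libraries, the log2 CPM of HSPA5 was most like that of PBXIP1 (Pearson r = 0.989), COL1A1 (0.989), SFPQ (0.987), SRRT (0.986) and GNL2 (0.986), among 9391 genes with a mean of at least 10 CPM. Of the members, HYOU1 was nearest (r = 0.976, rank 40), then PDIA4 (0.956), CANX (0.955), HSP90B1 (0.946), CALR (0.936) and PDIA6 (0.817). HERPUD1 (-0.527) and XBP1 (-0.951, rank 9389) ran against it. These values describe libraries that share cultures and differ mainly by fraction.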

How the data were processed

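RNA of 14 libraries was sequenced by the authors, who deposited whole-number read counts per gene symbol without normalization. Their processing notes name STAR 2.6.0a, limma and hg19. The count file is named for featureCounts, and the counting settings and annotation are not given in the sources used here. Naming was settled by title: shDAP5 light libraries carry the same code as shNSi moderate ones, and the shDAP5 total libraries are titled as total polysome. Of 58434 symbols, 37546 matched a name in GENCODE v29, and 27 read as dates, which were kept.

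Counts were filtered with filterByExpr, scaled by TMM and analysed by quasi-likelihood F-tests in edgeR 4.0.16 (robust, R 4.3.3), with 1 fit of 4 libraries for each fraction. Changes in ratio were interactions in 8 libraries with a term for each culture. P-values were adjusted by Benjamini-Hochberg over all genes of a fit, with a threshold of 0.05. The SE is the log2 change over the square root of F. Levels are CPM after TMM over 14 libraries, and ratios add 0.5 CPM. Every group had 2 cultures, where an exact two-sided permutation test cannot go below p = 0.333, and p-values measure the spread between these cultures only. The fits were tested on simulated counts with known changes, and recovery of changed genes in the shNSi heavy against light comparison varied widely between simulated draws, with no call in 1 earlier draw. False calls exceeded the nominal rate in some draws of every comparison, most in total mRNA, light polysomes and the heavy against light change between lines, and few changed genes were recovered in the last. The members and lists were chosen with earlier results of these data known. Named genes are all members, EIF4G2, line markers, up to 4 genes per list past the threshold with the largest changes, and the 5 genes most like HSPA5. The comparison of heavy with light between lines was added after the data were seen. Alternatives were DESeq2 1.42.0, library size, no filter, limma 3.58.1 on quantile-normalized log2 of CPM plus 1 (the study names limma and quantile normalization), replicate block, coding length offsets, no culture term, other control pools and each culture left out. Protein sequences were not used here.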

Additional observations from a re-analysis of the deposited data

Results flagged for a closer look

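The effect of DAP5 silencing on heavy polysome mRNA differed from its effect on total mRNA of the same cultures in 6 members, by the interaction test of edgeR. The difference in log2 change was -1.40 for HSPA5, -1.55 for HSP90B1, -1.14 for PDIA4, -1.16 for CALR, -1.62 for CANX and -1.52 for HYOU1. Of all genes, 8.23% fell in this test. The 6 calls were lost with scaling to library size, with no culture term and with the summed control, where 0% of all genes passed. As given above, they were also sensitive to single cultures. The effect on heavy polysome mRNA also differed from that on light polysome mRNA in HSP90B1 (-2.40), CANX (-1.98) and HYOU1 (-2.02), where 5.21% of all genes fell. Both sets share the heavy libraries and so are not independent. Groups of 2 cultures were too small to look for outlying samples.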

How the results depend on the processing

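In all 7 comparisons the values of members and EIF4G2 under alternatives were 937. Of these, 10 turned direction from a call, all with the shNSi moderate pool as the control for heavy polysomes: heavy polysome mRNA of HSPA5 (0.44) and HSP90B1 (0.27), heavy translation efficiency of HSPA5 (0.77), HSP90B1 (0.72), PDIA4 (0.56), CALR (0.56), CANX (0.51) and HYOU1 (0.74), and heavy against light of CANX (0.22) and HYOU1 (0.30). A further 74 changed sign with no call either way. The causes were not tested.

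Genes called were 53 in total mRNA and became 273 with DESeq2, 18 with library size, 577 with no filter, 8 with limma, 9 with length offsets, 365 with the replicate block, 71 with the pairing crossed, and 0 to 386 without single cultures. In heavy polysomes 4414 became 1471 with length offsets, 50 with the moderate control, 421 with the summed control and 2 to 3559 without single cultures. In light polysomes 0 became 105 with DESeq2, 244 with no filter, 2 with length offsets, 130 with the block, 3940 with the moderate control and 2 to 4678 without single cultures. In heavy translation efficiency 2012 became 0 with library size, 829 with limma, 525 with length offsets, 688 with the block, 4133 with the pairing crossed, 595 with length offsets and the block, 0 with no culture term, with the moderate or with the summed control, and 4 to 4515 without single cultures. In light translation efficiency 0 became 3 with no filter, 1 with the block, 4367 with the moderate control and 0 to 2030 without single cultures. In shNSi heavy against light 9174 became 5659 with length offsets, and with 1 culture left there is no test. In heavy against light between lines 1072 became 1965 with DESeq2, 1637 with library size, 700 with limma, 18 with length offsets, 266 with length offsets and the block, 2238 with the pairing crossed, 0 with no culture term, with the moderate or with the summed control for heavy, 3762 with the moderate control for light, and 2 to 2929 without single cultures.

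Replicate numbers mark no shared day or batch in the labels, and deviations of same-numbered cultures correlated at -0.28 to 0.06. With the block, 3 of the 6 member calls in heavy translation efficiency held, where 3.38% of all genes fell and 1.1% rose. XBP1 passed in heavy polysomes with the block (0.81, edgeR adjusted p = 0.0419), where 15.6% of all genes rose. CALR (-0.81, 0.00504) and CANX (-0.62, 0.0473) passed in total mRNA, where 1.69% fell. With the block and length offsets, HSP90B1 (-1.73, 0.0187) and CANX (-1.64, 0.0332) held in heavy against light between lines, where 1.06% of all genes fell. With the pairing crossed, PDIA6 lost its call in total mRNA (0.0761) and passed in heavy translation efficiency (-0.80, 0.0119), HSPA5 passed in heavy against light (-1.55, 0.0395), and 4 PERK targets rose in heavy translation efficiency. In that setting 15.4% of all genes fell and 11.4% rose in heavy translation efficiency, and 9.89% fell in heavy against light. With the block, MBTPS2 and ASNS lost their calls in heavy translation efficiency. In that fit 2 genes of the calnexin cycle, 2 of ER folding and 1 of degradation were past the threshold, beside 3.38% of all genes lower and 1.1% higher. Library size without TMM shifted the median of all genes in heavy polysomes from 0.09 to 0.34 and the share of calls that were lower from 54.1% to 31.3%, beside 63.4% with DESeq2. Of the members, DNAJB9 had the fewest counts (134 to 394 in the 14 libraries). The parts of depth and of the spread between cultures in the errors were not separated.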
